A study of Mus musculus with 6 samples.

Results

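Bile acid synthesis enzymes are the 10 genes Cyp7a1, Cyp8b1, Cyp27a1, Cyp7b1, Cyp2c70, Hsd3b7, Akr1d1, Baat, Acox2 and Amacr, chosen by name and found by their symbols among the 35082 genes of the deposited tables. The 10 all passed the filter on low counts, which left 12497 genes for the test. They were measured by bulk RNA sequencing in the liver of 6 male mice, which ate a high-fat diet for 20 weeks from an age of 8 weeks. The control group, titled wild-type, was 3 mice with the genotype G3BP1f/f and no Cre, and the other group was 3 mice with Alb-cre; G3BP1f/f, in which Cre is driven by the albumin promoter of hepatocytes. Both groups therefore carry the floxed alleles and both ate the high-fat diet, and neither a lean liver nor one with Cre alone was analysed here.

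Hepatocytes turn cholesterol into bile acids along a classical route, which opens with CYP7A1, and an alternative route, which opens with CYP27A1 and goes on through CYP7B1. Both routes share enzymes that rearrange the steroid rings, shorten the side chain in peroxisomes and couple the product to taurine or glycine. Bile acids returning from the gut lower the first step through the receptor FXR (Nr1h4) and its target SHP (Nr0b2) in liver, and through an intestinal hormone that is read in liver by FGFR4 (Fgfr4) with its partner beta-Klotho (Klb).

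Each library held between 20899135 and 21750007 estimated counts. G3bp1, the gene that Cre was meant to delete, measured 44.1, 34.8 and 40.5 CPM (estimated counts as a share of the library, scaled with TMM factors) in the controls, numbered 1 to 3, against 44.0, 30.0 and 31.5 CPM in the Alb-cre mice 1 to 3. Its log2 difference was -0.18 (SE 0.22, edgeR adjusted p = 0.909; 0.075 scaled to library totals alone), and a sum over whole transcripts does not show the loss of an exon. The second group is therefore called knockout-labelled. Transcripts of 100 bases had a median effective length, which allows for fragment size, of 3.495 in knockout-labelled library 1. In each of the other 5 libraries it was 100. A fragment length setting of its own for that library was inferred from this and is not stated in the labels. Hepatocyte markers summed to between 91100 and 119000 CPM in the controls and between 62200 and 107000 CPM in the knockout-labelled libraries. Cholangiocyte markers summed to at most 9.15 CPM in any library, and Fabp6 and Fgf15 of the ileal enterocyte were at 0 in every library. Mitochondrially encoded genes took at most 7.64% of counts in controls, against 7.57%, 9.19% and 10.2% in knockout-labelled libraries 1 to 3. In bulk liver, fewer hepatocytes and less RNA per hepatocyte cannot be told apart.

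None of the 10 enzymes passed the test between the groups, and 9 of them had log2 differences between -0.15 and 0.21. The exception in size was Cyp7b1, the oxysterol hydroxylase of the alternative route, with a log2 difference of -1.48. By edgeR 0 of the 10 were called at an adjusted p of 0.05, against 0% of the 12497 genes tested, and 1 of the 10 had an unadjusted p under 0.05, against 4.55% of all genes. DESeq2 called 0 of the 10, against 0.088% of all genes. CPM values without overlap between the groups were seen in 0 of the 10, against 9.34% of all genes. A log2 difference of at least 1 in size was seen in 1 of the 10, against 2.98% of all genes. The median log2 difference of the 10 was 0.06 and that of all genes 0.01, with 6 of the 10 above 0 and 4 below.

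**Figure D1:**
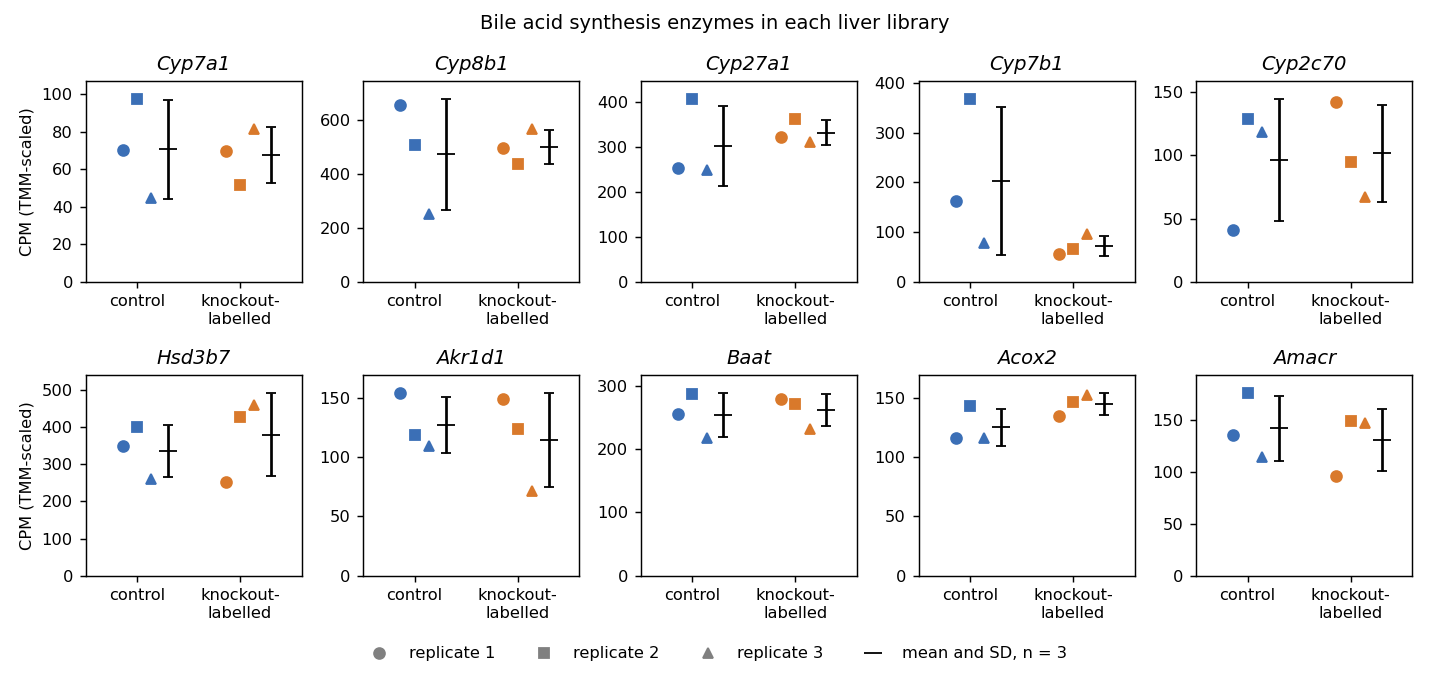
CPM of each enzyme (vertical axis, TMM-scaled, from 0) in the 3 control and the 3 knockout-labelled libraries, 1 panel per gene. Points are libraries, with a symbol for each replicate number, and bars are mean and SD (n = 3). The ranges of the groups overlap in every panel, and control 2 stands far above the other libraries for Cyp7b1.

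Per transcript length, Cyp7a1 sat at the bottom of the 10 genes. In the deposited TPM, a share of the library that allows for transcript length, Cyp7a1 was the lowest of the 10 in all 6 libraries. It measured 12.0 ± 3.79 TPM in controls and 15.0 ± 3.98 TPM with the knockout label (SD, n = 3 each). The top 3 places were held in every library by Cyp8b1, Cyp27a1 and Hsd3b7, and Cyp8b1 was highest in 4 of 6. In the controls Cyp8b1 measured 184 ± 65.9 TPM, Hsd3b7 146 ± 19.4 TPM and Cyp27a1 145 ± 22.0 TPM (SD, n = 3 each), neighbours that did not differ beyond their spread. Baat followed at 101 ± 8.24 TPM (SD, n = 3), with every control value below those of Cyp27a1. Below it, Cyp7b1 at 69.8 ± 48.7, Cyp2c70 at 49.3 ± 27.0, Acox2 at 46.3 ± 2.80, Amacr at 41.7 ± 7.19 and Akr1d1 at 35.0 ± 4.19 TPM (SD, n = 3 each) formed an order in which no neighbours differed beyond their spread, whereas the step from Akr1d1 down to Cyp7a1 was wider than the SDs. In the knockout-labelled libraries Cyp7b1 stood at 33.4 ± 12.1 TPM (SD, n = 3), next above Cyp7a1. Together the 10 took 0.198%, 0.222% and 0.156% of counts in controls 1 to 3, against 0.216%, 0.228% and 0.249% in knockout-labelled libraries 1 to 3, so that the groups overlapped.

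Of the classical route, neither Cyp7a1 nor Cyp8b1 differed detectably. Cyp7a1 (ENSMUSG00000028240; chromosome 4, 6265612 to 6275633, minus strand, GRCm38) encodes the rate-limiting hydroxylase of the classical route. Cyp7a1 measured 70.5, 97.4 and 44.5 CPM in controls 1 to 3, against 69.9, 51.7 and 81.6 CPM in knockout-labelled libraries 1 to 3. The knockout-labelled libraries lay inside the range of the controls. The log2 difference was -0.06 (SE 0.31, edgeR adjusted p = 0.975), and its 95% interval on the fold scale ran from 0.585 to 1.56. The direction of so small a difference turned with the scaling, to 0.23 scaled to library totals alone. Cyp8b1 (ENSMUSG00000050445; chromosome 9, 121914356 to 121916305, minus strand, a gene of 1 exon) encodes the hydroxylase that makes cholic acid and so sets its share of the bile acid pool. It measured 659, 508 and 254 CPM in controls 1 to 3, against 498, 438 and 568 CPM in knockout-labelled libraries 1 to 3. Control 3 was the lowest of the 6 libraries and control 1 the highest. The Cyp8b1 log2 difference was 0.08 (SE 0.35, edgeR adjusted p = 0.973), and it was -0.21 without control 3 and 0.39 without control 1.

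Of the enzymes of the alternative route, Cyp27a1 had a difference near 0 and Cyp7b1 the difference of greatest size among the 10, and neither passed the test. Cyp27a1 (ENSMUSG00000026170; chromosome 1, 74713574 to 74737892, plus strand) encodes the mitochondrial hydroxylase that acts on the sterol side chain. It measured 253, 407 and 248 CPM in controls 1 to 3, against 323, 363 and 311 CPM in knockout-labelled libraries 1 to 3. All knockout-labelled values lay between the highest control and the other two. The log2 difference of Cyp27a1 was 0.14 (SE 0.26, edgeR adjusted p = 0.942).

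Cyp7b1 (ENSMUSG00000039519; chromosome 3, 18071950 to 18243338, minus strand) encodes the hydroxylase that acts on oxysterols after CYP27A1 and is known to be male-predominant in mouse liver. It measured 163, 367 and 78.6 CPM in controls 1 to 3, against 56.7, 65.1 and 95.6 CPM in knockout-labelled libraries 1 to 3. The groups overlapped, since control 3 lay below knockout-labelled library 3, and the controls alone spanned 4.67-fold. Controls averaged 203 ± 148 CPM, against 72.5 ± 20.4 CPM with the knockout label (SD, n = 3 each). The log2 difference was -1.48 (SE 0.51, edgeR unadjusted p = 0.0184, adjusted p = 0.845; 95% interval on the fold scale, not adjusted for the number of genes, from 0.159 to 0.801). It was -0.74 without control 2 and stayed below 0 under all 19 alternatives tried. Control 2 was also the highest library for a list of other male-predominant genes, by their median. Of the 15 genes on that list, 14 had a log2 difference below 0, 0 were called, and the median was -0.72. Relative to the mean of all 6 libraries the list's median was 0.69, 1.56 and -1.15 (log2) in controls 1 to 3, against -0.56, -0.62 and 0.58 in knockout-labelled libraries 1 to 3. The part of this spread in the Cyp7b1 difference was not tested. Among them Mup12, a major urinary protein with near-identical copies, had a log2 difference of -2.21, and Cyp2d9, Nudt7 and Elovl3 had -0.68, -0.93 and 1.02.

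**Figure D2:**
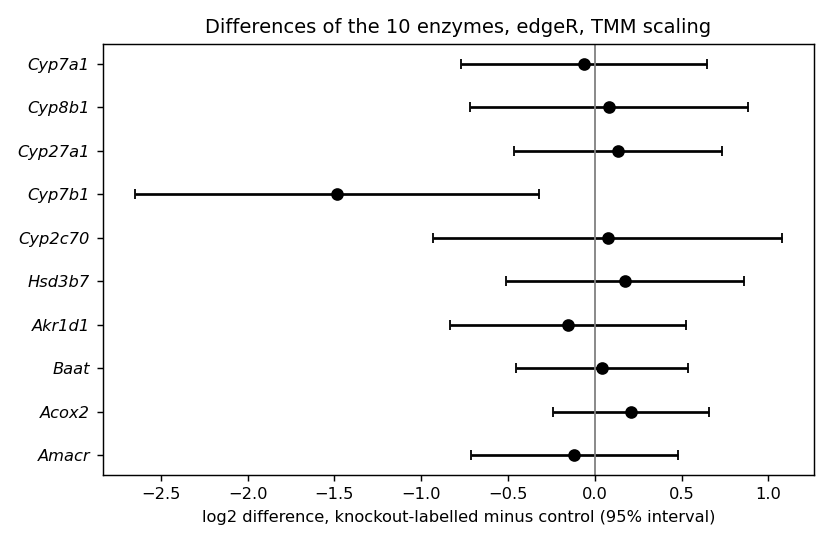
Log2 difference of each enzyme, knockout-labelled minus control (horizontal axis), with its 95% interval from the edgeR fit, not adjusted for the number of genes. The intervals of 9 genes cross 0 and that of Cyp7b1, at -1.48, runs from -2.65 to -0.32.

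Ratios between enzymes within a library do not depend on the scaling of that library. The ratio of Cyp7b1 to Cyp7a1, in TPM, was 4.72, 7.72 and 3.61 in controls 1 to 3, against 1.66, 2.58 and 2.40 in knockout-labelled libraries 1 to 3. Every knockout-labelled library was thus below every control, with mean log2 ratios of 2.35 ± 0.56 and 1.12 ± 0.34 (SD, n = 3 each). Of the 9 other enzymes Cyp7b1 was the 1 whose ratio to Cyp7a1 did not overlap between the groups, against 1.74% of all other genes tested. Cyp7b1 was without overlap in 4 of its 9 pairs with the other enzymes. These pairs all use the same Cyp7b1 values and so are not separate results. Its ratios to Cyp27a1, Cyp2c70, Akr1d1, Baat and Acox2 overlapped. Over all 45 pairs of the enzymes 5 were without overlap, with Hsd3b7 and Amacr as the pair that lacked Cyp7b1. The share over all pairs of genes was not computed, so neither count of pairs can be set against it. With 3 animals against 3 an exact permutation test cannot go below 0.10, and no test was made of these ratios. The ratio of Cyp8b1 to Cyp7a1 was 21.5, 12.1 and 13.1 in controls 1 to 3, against 16.4, 19.6 and 16.1 in knockout-labelled libraries 1 to 3, with the knockout-labelled libraries inside the control range. The ratio of Cyp27a1 to Cyp7a1 ran from 10.5 to 15.6 in controls and from 10.1 to 19.3 in the knockout-labelled libraries. The ratio of Cyp2c70 to Cyp8b1 was lowest in control 1, at 0.0745, and highest in control 3, at 0.589, so that the controls enclosed the knockout-labelled values of 0.34, 0.289 and 0.162.

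**Figure D3:**
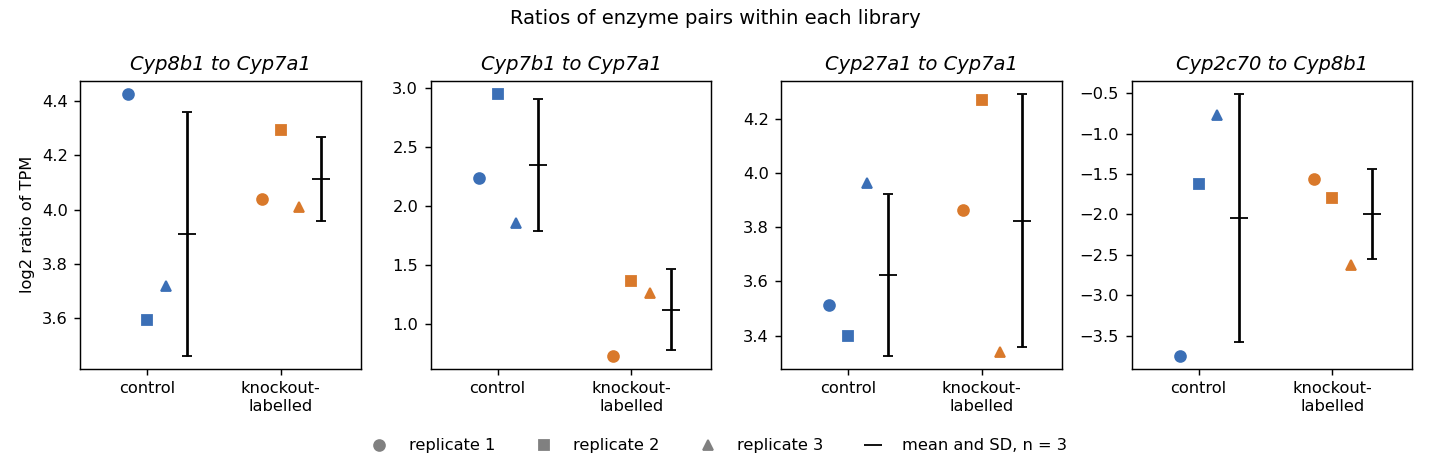
Log2 ratio of TPM within each library (vertical axis) for 4 pairs of enzymes. Points are libraries and bars are mean and SD (n = 3). The ratio of Cyp7b1 to Cyp7a1 separates the groups, at 1.85 to 2.95 in controls and 0.73 to 1.37 in the knockout-labelled libraries, and the other 3 overlap.

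Cyp2c70, the mouse enzyme that makes muricholic acids, varied more within groups than between them. Cyp2c70 (ENSMUSG00000060613; chromosome 19, 40153353 to 40187333, minus strand) measured 41.3, 129 and 119 CPM in controls 1 to 3, against 142, 95.02 and 67.2 CPM in knockout-labelled libraries 1 to 3. Control 1 was the lowest of the 6 and the other libraries of both groups were mixed. The log2 difference was 0.08 (SE 0.44, edgeR adjusted p = 0.979), and the interval on the fold scale, from 0.525 to 2.11, was the widest of the 9 that included no change. Without control 1 the Cyp2c70 difference was -0.29, and without knockout-labelled library 1 it was -0.25. Cyp2c70 belongs to a large family of related genes among which reads can be divided.

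The enzymes that rearrange the steroid rings were mixed in direction. Akr1d1 (ENSMUSG00000038641; chromosome 6, 37530173 to 37568815, plus strand) encodes the reductase that bends the ring system into its bile acid form. It measured 154, 119 and 109 CPM in controls 1 to 3, against 149, 124 and 71.1 CPM in knockout-labelled libraries 1 to 3. Knockout-labelled library 3 was the lowest library and the other 5 were mixed. The log2 difference of Akr1d1 was -0.15 (SE 0.30, edgeR adjusted p = 0.942), and it was 0.10 scaled to library totals alone. Hsd3b7 (ENSMUSG00000042289, chromosome 7, 127800604 to 127803802, plus strand) encodes the endoplasmic reticulum dehydrogenase that acts in both routes after CYP7A1 or CYP7B1. It measured 349, 400 and 261 CPM in controls 1 to 3, against 252, 427 and 461 CPM in knockout-labelled libraries 1 to 3. The highest and the lowest libraries were both knockout-labelled. The log2 difference was 0.17 (SE 0.30, edgeR adjusted p = 0.936).

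Beneath the sum, the transcripts of Hsd3b7 differed between libraries in a way that ran across the groups. Hsd3b7-201, the coding transcript of 7 exons, carried 11.9%, 88.5% and 64.8% of the gene's counts in controls 1 to 3, against 22.3%, 69.7% and 68.0% in knockout-labelled libraries 1 to 3. Where it was low, the counts lay on Hsd3b7-203 and Hsd3b7-202. These carried 44.8% and 26.9% in control 1 and 54.5% and 15.1% in knockout-labelled library 1, whereas in control 2 and knockout-labelled libraries 2 and 3 neither passed 4.13%. Hsd3b7-202 begins at another first exon and lacks exon 6. It has 5 exons and 663 coding bases, against 7 exons and 1107 coding bases in Hsd3b7-201, so exon 6 is only part of the difference. Hsd3b7-203 lacks the first 93 bases of exon 6, which are 31 codons. The exon is shown because both transcripts lack part or all of it, with the 93 bases in capitals and the 70 bases that Hsd3b7-203 keeps in lower case (chr7:127802236-127802398, GRCm38, plus strand, coding, from the GENCODE M21 transcript).

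Hsd3b7 exon 6: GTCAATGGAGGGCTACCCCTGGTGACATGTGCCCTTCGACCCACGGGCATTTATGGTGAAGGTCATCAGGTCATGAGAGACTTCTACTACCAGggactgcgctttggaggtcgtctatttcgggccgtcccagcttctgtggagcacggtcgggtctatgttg

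Of the counts on Hsd3b7-201, Hsd3b7-202 and Hsd3b7-203 alone, leaving out the other coding transcripts, Hsd3b7-202 and Hsd3b7-203 took 85.7%, 6.57% and 27.3% in controls 1 to 3, against 75.7%, 3.64% and 4.51% in knockout-labelled libraries 1 to 3. Controls 1 and 3 and knockout-labelled library 1 were thus above the other 3 libraries, which is a division across the groups. The GC content of the 93 bases was 53.8% and that of the whole exon 56.4%. Transcripts annotated as retaining an intron took 16.3%, 5.17% and 10.8% of Hsd3b7 counts in controls 1 to 3, against 7.97%, 27.1% and 28.1% in knockout-labelled libraries 1 to 3. One of them, of 5 exons and 2286 bases, reached 19.9% and 19.4% in knockout-labelled libraries 2 and 3. Over all genes such transcripts took between 1.33% and 3.23% of counts, and knockout-labelled libraries 2 and 3 were not the highest there. These libraries did differ from the others over the whole table. Transcripts with any count made up 36.3% and 37.8% of those listed in knockout-labelled libraries 2 and 3. In the other libraries, knockout-labelled library 1 among them, they made up 30.2% to 31.2%. The cause of these divisions was not tested. The same 3 libraries were set apart in Cyp27a1, where Cyp27a1-202, a short transcript from the end of the gene annotated as retaining an intron, took 9.59%, 1.04% and 4.59% of counts in controls 1 to 3, against 12.2%, 0.90% and 0.78% in knockout-labelled libraries 1 to 3. With a term for this division of the libraries, chosen after seeing the data, the Hsd3b7 log2 difference was -0.06 in place of 0.17.

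**Figure D4:**
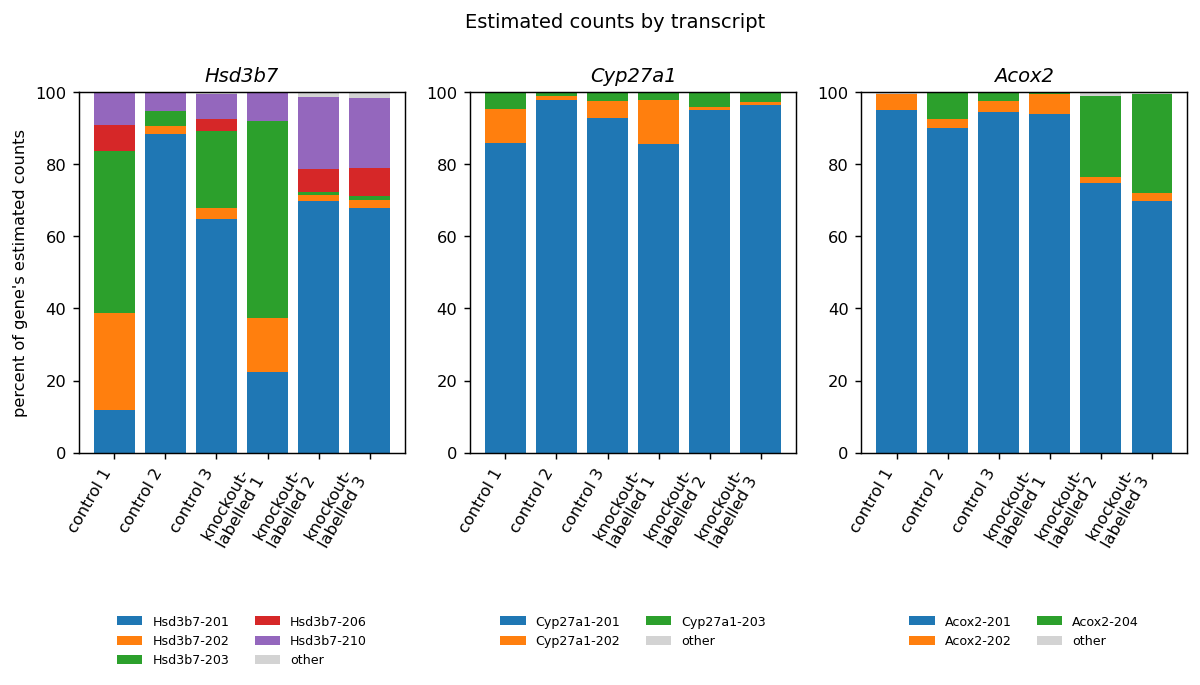
Share of each gene's estimated counts (vertical axis, percent) on its main transcripts in each of the 6 libraries, for Hsd3b7, Cyp27a1 and Acox2. Hsd3b7-203 takes 44.8% in control 1 and 54.5% in knockout-labelled library 1, and Acox2-204 takes 22.7% and 27.6% in knockout-labelled libraries 2 and 3.

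Of the enzymes of the side chain and of conjugation, Acox2 and Baat had the smallest standard errors of the 10. Acox2 (ENSMUSG00000021751; chromosome 14, 8225511 to 8259353, minus strand) encodes the peroxisomal oxidase that opens the shortening of the side chain. It measured 117, 143 and 116 CPM in controls 1 to 3, against 135, 147 and 153 CPM in knockout-labelled libraries 1 to 3. Knockout-labelled libraries 2 and 3 lay above every control and library 1 lay below control 2. The Acox2 log2 difference was 0.21 (SE 0.20, edgeR adjusted p = 0.878), and its fold interval, from 0.846 to 1.58, was the narrowest of the 10. Acox2-204, which has another first exon than the main transcript and the same coding sequence, took 0%, 7.11% and 2.25% of Acox2 counts in controls 1 to 3, against 0.30%, 22.7% and 27.6% in knockout-labelled libraries 1 to 3, so that knockout-labelled libraries 2 and 3 were highest.

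Amacr (ENSMUSG00000022244; chromosome 15, 10981756 to 10996626, plus strand) encodes the racemase that turns the side chain into the form that the oxidase accepts. It measured 136, 176 and 114 CPM in controls 1 to 3, against 96.3, 149 and 148 CPM in knockout-labelled libraries 1 to 3. The lowest library was knockout-labelled and the highest a control. The log2 difference of Amacr was -0.12 (SE 0.26, edgeR adjusted p = 0.948), and it was 0.16 scaled to library totals alone. Baat (ENSMUSG00000039653; chromosome 4, 49489422 to 49506557, minus strand) encodes the transferase that couples bile acids to taurine or glycine. It measured 255, 288 and 218 CPM in controls 1 to 3, against 279, 272 and 232 CPM in knockout-labelled libraries 1 to 3. The knockout-labelled values all lay inside the control range. The Baat log2 difference was 0.04 (SE 0.22, edgeR adjusted p = 0.977), with a fold interval from 0.730 to 1.45.

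The deposited TPM placed more of the enzymes higher in the knockout-labelled libraries than the scaled counts did. In TPM the knockout-labelled libraries lay above every control for 3 of the 10, Cyp27a1, Baat and Acox2, against 19.8% of all genes. Acox2 measured 43.1, 48.4 and 47.4 TPM in controls 1 to 3, against 63.5, 64.6 and 70.8 TPM in knockout-labelled libraries 1 to 3. TPM uses no TMM factors, and these were at most 1.00 in the controls and at least 1.07 in the knockout-labelled libraries. Scaled to library totals alone the median log2 difference of all genes was 0.27 and that of the 10 enzymes 0.32, and 9 of the 10 lay above 0.

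Among themselves the enzymes took much the same order within the controls. Control 2 was the highest control for 8 of the 10, against 32.9% of all genes, and control 3 the lowest for 9 of the 10, against 28.7%. Relative to the mean of all 6 libraries the median of the 10 was 0.01, 0.29 and -0.28 (log2) in controls 1 to 3, against 0.06, 0.08 and 0.07 in knockout-labelled libraries 1 to 3. Kupffer cell and macrophage markers summed to between 196 and 570 CPM in the controls and between 185 and 253 CPM in the knockout-labelled libraries, and their part in the spread of the controls was not tested. All 8 of those markers had a log2 difference below 0 and 0 were called.

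Of 14 tested genes that work beside the 10 in bile acid synthesis 12 had a log2 difference below 0 and 2 above, 0 were called by edgeR, 2 did not overlap between groups, against 9.34% of all genes, and the median was -0.14. Fdx1, the ferredoxin that passes electrons to mitochondrial P450 enzymes such as CYP27A1, measured 68.9, 84.8 and 82.5 CPM in controls 1 to 3, against 50.2, 47.0 and 50.1 CPM in knockout-labelled libraries 1 to 3. In CPM the groups did not overlap for Fdx1, whereas in TPM they did. Its log2 difference was -0.68 (SE 0.18, edgeR unadjusted p = 0.0055, adjusted p = 0.845). Acot8, a peroxisomal thioesterase, was at -0.40, also without overlap in CPM and with overlap in TPM. Akr1c6, from a family of closely related genes, had -0.47, and Cyp39a1, which hydroxylates another oxysterol, had 0.91 (SE 0.75). Scaled to library totals alone the median of these 14 was 0.13.

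Of 19 genes of feedback and nuclear receptor control 12 had a log2 difference above 0 and 7 below, 0 were called by edgeR, 2 did not overlap between groups, against 9.34% of all genes, and the median was 0.14. Nr1h4, which encodes the bile acid receptor FXR, measured 155, 130 and 133 CPM in controls 1 to 3, against 118, 127 and 125 CPM in knockout-labelled libraries 1 to 3, with no overlap in CPM and a log2 difference of -0.18 (edgeR adjusted p = 0.894). In TPM Nr1h4 overlapped between the groups, with means of 54.6 in controls and 62.2 with the knockout label. Nr0b2, its target that lowers Cyp7a1, measured 58.1, 48.4 and 40.9 CPM in controls 1 to 3, against 54.2, 45.2 and 16.9 CPM in knockout-labelled libraries 1 to 3, a log2 difference of -0.34 (edgeR adjusted p = 0.902). Knockout-labelled library 3 alone was low for Nr0b2. Fgfr4, the hormone receptor, measured 15.2, 10.5 and 8.10 CPM in controls 1 to 3, against 16.1, 16.7 and 15.8 CPM in knockout-labelled libraries 1 to 3, with no overlap and a log2 difference of 0.53 (edgeR adjusted p = 0.845). Its partner Klb had 0.24 (SE 0.36). Foxa2, a hepatocyte transcription factor, had 0.62, and Nr5a2, the receptor that drives Cyp7a1 and Cyp8b1, had 0.41.

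Clock factors set a daily rhythm on several of these enzymes, Cyp7a1 among them. Of 16 clock genes 6 had a log2 difference above 0 and 10 below, 0 were called by edgeR over all genes, and the groups did not overlap for 6, against 9.34% of all genes. By edgeR 7 of the 16 had an unadjusted p under 0.05, against 4.55% of all genes. The median of the clock genes was -0.15, and 0.10 scaled to library totals alone. Dbp, which activates Cyp7a1, had a log2 difference of -1.80 (SE 0.32), and Nfil3, which binds the same sites as a repressor, had 0.88 (SE 0.31, edgeR adjusted p = 0.845 for both). Npas2 and Arntl had 2.15 and 2.36. Beside these, Cyp7a1 had -0.06. The time of day at which liver was taken was not given in the labels.

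Promoter windows of 250 bases before the start were found in RefSeq (GRCm38.p6) for 6 of the 10 genes, with 7 windows in all. They were searched on both strands for TTATGTAA and the looser TTATGNAA, letters of the DBP and NFIL3 site, for AGGTCA and CAAGGTCA, letters of nuclear receptor sites, the first being contained in the other, and for TATAAA. TTATGNAA was found in the windows of Cyp27a1 and Akr1d1, and in 3.07% of all 32851 windows. TTATGTAA, held by 0.82% of all windows, and CAAGGTCA, held by 1.33%, were in none of the 7. AGGTCA was found in Akr1d1 and Cyp2c70, and in 14.02% of all windows, and TATAAA in Cyp8b1 and Cyp2c70, and in 12.4%. The windows of Cyp27a1 (chr1:74713285-74713534, plus strand) and Akr1d1 (chr6:37529923-37530172, plus strand) are shown because they hold letters of a site read by Dbp and Nfil3, with every match in capitals.

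Cyp27a1: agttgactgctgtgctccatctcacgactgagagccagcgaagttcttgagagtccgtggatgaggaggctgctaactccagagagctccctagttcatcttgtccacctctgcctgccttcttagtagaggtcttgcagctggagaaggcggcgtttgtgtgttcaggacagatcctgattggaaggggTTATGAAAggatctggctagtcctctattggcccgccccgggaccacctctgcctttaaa

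Akr1d1: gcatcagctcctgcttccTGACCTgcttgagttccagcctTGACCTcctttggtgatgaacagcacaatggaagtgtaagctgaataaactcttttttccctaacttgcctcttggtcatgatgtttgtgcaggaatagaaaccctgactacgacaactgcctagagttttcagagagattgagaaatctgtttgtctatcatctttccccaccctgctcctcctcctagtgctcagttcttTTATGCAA

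Cyp27a1 and Akr1d1 had log2 differences of 0.14 and -0.15 beside those of Dbp and Nfil3. A match of letters is a description and does not show binding.

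Of 15 transporters of bile acids and biliary lipids 12 had a log2 difference above 0 and 3 below, and 0 were called by edgeR. The groups were without overlap for 0 of the 15, against 9.34% of all genes. The median of the transporters was 0.18, and 0.45 scaled to library totals alone. Slc10a1, which takes bile acids up from blood, measured 175, 480 and 272 CPM in controls 1 to 3, against 335, 601 and 397 CPM in knockout-labelled libraries 1 to 3. Abcb11, the export pump for bile acids, measured 120, 162 and 93.7 CPM in controls 1 to 3, against 155, 186 and 158 CPM in knockout-labelled libraries 1 to 3. Their log2 differences were 0.53 and 0.41 (edgeR adjusted p = 0.853 and 0.845), and Abcc2 and Slco1a4 had 0.67 and 1.83, the last with an SE of 0.83. Of 11 genes of cholesterol supply 3 had a log2 difference above 0 and 8 below, with a median of -0.05 (0.19 scaled to library totals alone) and 0 called, and with Scarb1 at 0.47, Soat2 at 0.42, Stard4 at -0.33 and Hmgcs1 at -0.25.

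Cyp7a1 and Cyp27a1 are known to be richest in hepatocytes around the central vein. Of 16 pericentral genes 14 had a log2 difference below 0 and 2 above, 0 were called by edgeR, 5 did not overlap between groups in CPM, against 9.34% of all genes, and the median was -0.38. In TPM the groups overlapped for each of those 5. Cyp1a2, Cyp2c37, Cyp2a5 and Slc13a3 had -0.96, -0.86, -1.18 and -0.73, of which Cyp2c37 and Cyp2a5 have near relatives among which reads can be divided. Of 12 periportal genes 10 had a log2 difference above 0, with a median of 0.29, 0 called and 0 without overlap in CPM. Among them Gls2 was at 0.57, Arg1 at 0.49, Ass1 at 0.58 and Cps1 at 0.47. In TPM the knockout-labelled libraries lay above every control for Gls2, Arg1, Cps1 and Cdh1 of the 12, against 19.8% of all genes. Scaled to library totals alone the medians were -0.12 and 0.54. Cyp7a1 and Cyp27a1 had -0.06 and 0.14 in the scaled counts. The difference between these enzymes and the pericentral genes was not tested.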

How the data were processed

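For each library the deposited table lists 115221 transcripts with an estimated count, a length and a TPM, under the header that Salmon writes, per the file headers. TPM is scaled by the authors to 1 total for all libraries, whereas the deposited estimated counts are not scaled. The submitters' processing notes name Bowtie2 2.2.5 and RSEM 1.2.8 as well as DESeq and GRCm38, without roles. Salmon's version and transcriptome: not given in the sources used here.

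Transcript identifiers, without version, were looked up in GENCODE M21. The lookup found 113664, and the 1557 others were left out. Estimated counts were added up per gene and rounded. No use of strand is stated, so overlapping, antisense and near-identical genes cannot be separated. After filterByExpr and TMM scaling, differences were tested by edgeR 4.0.16 (quasi-likelihood, two-sided, R 4.3.3), and p-values were adjusted over all 12497 genes by Benjamini and Hochberg's method, with calls at 0.05. A standard error is the size of the log2 difference over the square root of F, and 95% intervals use 8.37 degrees of freedom. Values relative to the mean of the libraries are log2 CPM with a prior count of 2. The fit was tested on counts simulated with the dispersions of these libraries. At simulated log2 differences of 1, 2, 4 and -2 it called 7, 41, 50 and 30 of 50 genes each. Of 12297 genes simulated without a difference 14 were called. Most genes with a simulated log2 difference of 1 were thus missed.

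The enzymes and gene lists were chosen with earlier results of these data known. Named were the 10 enzymes, G3bp1, up to 4 tested genes per list with the smallest p, 6 genes of feedback and transport whatever their values, and transcripts above 10% of an enzyme's counts in any library. A gene that this rule takes is not reported here. Other transcripts and genes named were chosen after their values were seen. Alternatives were DESeq2 1.42.0, limma 3.58.1 (voom, with and without sample weights, and on log2 of TPM plus 0.5), other scalings, filters and offsets, the replicate number as a block, and each library left out. Library totals give the depth, and 3 animals per group limit the precision.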

Additional observations from a re-analysis of the deposited data

How the results depend on the processing

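None of the 10 enzymes was called under any of the 19 alternatives. Cyp7b1 stayed below 0 in all 19, and Cyp27a1 and Acox2 above 0. Scaling to library totals alone put the median of the enzymes at 0.319, in place of 0.058, and turned Cyp7a1, Akr1d1, Amacr and G3bp1 to 0.235, 0.102, 0.164 and 0.075. With limma on log2 TPM the median was 0.452 and the same 4 genes were at 0.322, 0.159, 0.239 and 0.163. The median of all genes was 0.274 and 0.27 under these settings, in place of 0.014. With sample weights in limma voom Cyp2c70 was -0.226 and Amacr 0.07. A term for the division of the libraries put Hsd3b7 at -0.063. DESeq2 called 6 genes higher and 5 lower over all genes, where edgeR called 0 and 0 (568 with an unadjusted p under 0.05).

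With 1 library left out, edgeR called from 0 to 2 genes higher and from 0 to 1 lower, the calls coming without knockout-labelled library 1. The log2 differences ran from -1.86 to -0.737 for Cyp7b1, from -0.301 to 0.237 for Cyp7a1, from -0.213 to 0.393 for Cyp8b1, from -0.29 to 0.344 for Cyp2c70, from -0.391 to 0.097 for Akr1d1, from -0.05 to 0.142 for Baat and from -0.243 to 0.067 for Amacr. The median of the enzymes ran from -0.131, without control 3, to 0.189, without control 2. The cause was not tested for any of these.

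With the replicate block 0 genes were called, 719 had an unadjusted p under 0.05, and Cyp7b1 was -1.27. Deviations of same-numbered libraries correlated at 0.226, 0.274 and -0.21, and those of differently numbered libraries at -0.475 to 0.431. With 3 libraries per group these values do not show a pairing of the animals by number and cannot exclude it. CPM per kilobase left Cyp8b1 highest in 4 libraries. The number of animals, 3 per group, limits the precision, as the width of the intervals shows.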
